A study of Rattus norvegicus with 6 samples.

Results

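The genes described here encode the machines that carry cargo along microtubules: the kinesins (symbols Kif and Kifc), the kinesin-1 light chains (Klc), the chains of cytoplasmic dynein (Dync and Dynl) and the subunits of its cofactor dynactin (Dctn). The rule that chose them uses symbols alone and no measured value. The deposited count table of 22601 genes held 66 such symbols, of which 65 are described and 1 is not reported here. Of these 65, 58 passed a filter on low counts and were tested, among 14588 genes tested in all.

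RNA had been sequenced from the ventral hippocampus, the pole of the hippocampus most tied to emotion and stress, of male rats of the outbred Sprague Dawley strain. The groups were adult rats of 4 months and aged rats of 22 months, with no genotype or treatment named for either. Each age had 10 rats that were scored in the Morris water maze, a test of memory for places, so all animals had been trained before the tissue was taken, and 3 rats of each age were then picked at random, each giving 1 library. The comparison asks how transcript levels differ between the ages, and the libraries are called adult rats 1 to 3 and aged rats 1 to 3 after the numbers in their titles.

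Kinesins mostly walk toward the plus ends of microtubules, which in axons point away from the cell body, and cytoplasmic dynein walks toward the minus ends, so that the first carry synaptic vesicle precursors, mitochondria and receptors outward and the second returns endosomes and signalling cargo. Dynein-1 works with dynactin and an adaptor protein. Other kinesins remodel microtubules, build cilia or move chromosomes in dividing cells, and dynein-2 is the return motor inside cilia.

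Library totals lay between 12476758 and 15689921 counts, and the biological coefficient of variation over all genes was 23.4%. All 10 neuronal markers looked up were detected, with summed levels of 10880 to 13680 CPM (counts scaled to library size by TMM, edgeR's trimmed mean of M values) in adult and 10710 to 13570 CPM in aged rats. Of the 10, 4 had lower means in aged rats. Single markers could range more widely than the sum. Camk2a had 102, 395 and 203 CPM in adult rats 1 to 3 and 367, 149 and 305 CPM in aged rats 1 to 3, whereas Syp lay between 2138 and 2696 CPM. Adult rat 1 stood apart by choroid plexus transcripts, whose 6 markers summed to 2145 CPM there and to between 9.784 and 73.74 CPM in the other 5 libraries. The 8 oligodendrocyte markers all had lower means in aged rats, and their sums did not overlap, at 17510, 11880 and 11620 CPM in adult rats 1 to 3 and 6840, 7212 and 9152 CPM in aged rats 1 to 3. In bulk tissue, fewer cells of a type and less RNA per cell cannot be told apart.

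To show the regulatory sequence in front of these genes, promoters were matched by symbol in RefSeq (build GRCr8, whose gene starts may differ from those of the Rnor_6.0 build that the submitters' processing notes name). A promoter was found for 49 of the 65 genes, and the 250 bases upstream of each annotated start were searched on both strands. The cyclic AMP response element TGACGTCA, a palindrome, lay in front of 5 of the 49 genes (10.204%) and of 395 of all 19005 genes (2.078%). The X-box core GTTGCCATG, bound by RFX factors that act on many cilia genes, lay in front of 2 of the 49 (4.082%) and of 95 of all genes (0.5%). The GC box GGGCGG was present in 32 (65.306%) against 41.379% of all genes, and the cell cycle element TTTGAA in 8 (16.327%) against 16.212% of all genes, with 5 of those 8 among the 11 matched mitotic kinesins. These motifs were picked from a larger number looked up and the counts are a description without a test.

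Windows of 60 bases are printed for Klc1 and Kif5c, the light and heavy chain with the highest levels per length in kinesin-1, for Kif17 and Dctn3, which carry the same element, and for Kif9 and Dync2li1, both genes of cilia. Each is written on the strand of its gene, with the motif in capitals. The element ended 68 bases before the nearest of 3 annotated starts of Klc1, and 35, 70 and 74 bases before those of Kif5c, Kif17 and Dctn3. In Dync2li1 the X-box core lies on the opposite strand and so reads CATGGCAAC, 9 bases before the start, and in Kif9 it lay 20 bases before the start.
Klc1, chr6:136644499-136644558, plus strand: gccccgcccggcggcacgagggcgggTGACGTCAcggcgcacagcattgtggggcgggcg
Kif5c, chr3:54441239-54441298, plus strand: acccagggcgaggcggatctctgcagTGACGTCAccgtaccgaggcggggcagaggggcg
Kif17, chr5:155765489-155765548, plus strand: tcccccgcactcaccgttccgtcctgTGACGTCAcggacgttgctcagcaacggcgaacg
Dctn3, chr5:61684951-61685010, minus strand: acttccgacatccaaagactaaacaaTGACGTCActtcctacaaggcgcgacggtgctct
Kif9, chr8:119338039-119338098, plus strand: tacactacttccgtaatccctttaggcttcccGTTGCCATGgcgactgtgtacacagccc
Dync2li1, chr6:15778167-15778226, minus strand: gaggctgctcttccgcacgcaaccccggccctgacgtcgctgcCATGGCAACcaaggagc

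Between genes, levels were compared as the deposited FPKM (fragments per kilobase of transcript and library size), which allow for gene length. Over all 6 libraries, 10 of the 65 genes averaged at least 100 FPKM, 25 lay between 10 and 100, 11 between 1 and 10 and 19 below 1. The median of the 58 tested genes was 15.02 FPKM, against 7.593 FPKM over all genes tested. Small subunits led the order: Dynll1, the LC8 light chain, averaged 1049 FPKM, the roadblock light chain Dynlrb1 499.6 FPKM and the second LC8 gene Dynll2 319.1 FPKM. Beyond dynein, both LC8 proteins serve as dimerizing hubs for many partners, so their transcripts are not a measure of dynein alone.

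The light chain Klc1 followed at 292.6 FPKM and was the highest gene of any kinesin, ahead of the minus-end kinesin Kifc2 at 131.3 FPKM. Among heavy chains with a motor domain, the neuronal Kif5c averaged 91.12 FPKM, Kif5a 79.79 FPKM, the synaptic vesicle precursor motor Kif1a 47.69 FPKM and Kif1c 41.46 FPKM. Dync1h1, the single heavy chain of dynein-1, averaged 11.17 FPKM, below its intermediate chains Dync1i1 at 67.65 and Dync1i2 at 60.40 FPKM. Dynactin subunits lay between 22.4 FPKM (Dctn4) and 131.0 FPKM (Dctn2). At the other end, all 12 mitotic kinesins averaged below 1 FPKM, and Kif2b had no count in any library.

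**Figure D1:**
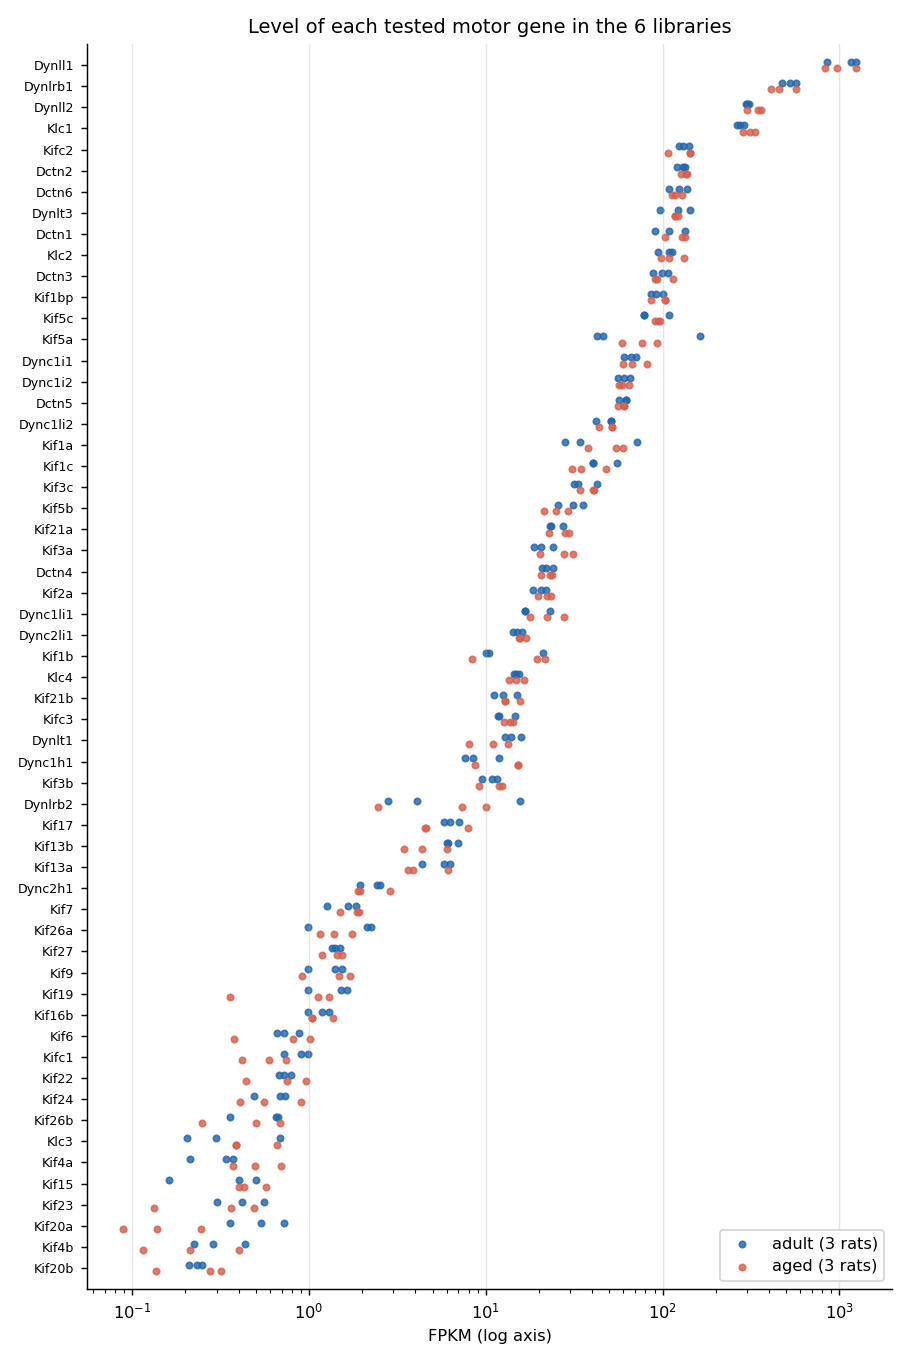
Deposited FPKM on a log axis for each of the 58 tested genes, ordered by mean, with 3 adult (blue) and 3 aged (red) libraries as points. Levels run from below 1 FPKM for the mitotic kinesins to 1049 FPKM for Dynll1, and the colours overlap in every row but those of Kif20a, lower in aged rats, and Kif4a, higher by a narrow margin.

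Between the ages, no motor gene was called. With edgeR's quasi-likelihood test and Benjamini-Hochberg adjustment over all 14588 genes, 0 of the 58 passed an adjusted p under 0.05, where 0% of all tested genes did, and each of the 58 had an adjusted p of 1.0. DESeq2 called 0 of the 58 and 0.213% of all genes, and limma-voom and limma on log2 FPKM also called 0 of the 58. At an unadjusted p under 0.05, 2 genes were lower in aged rats, Kif20a and Kif13b, against 2.27% of all genes, and 0 were higher, against 1.18%. In TMM-scaled CPM the same 2 genes were the ones whose adult and aged values did not overlap, both lower in aged rats (4.43% of all genes), with 0 higher (3.13% of all genes). In deposited FPKM, and in counts over library totals, the genes without overlap were Kif20a, lower (3.85% of all genes), and Kif4a, higher (3.65% of all genes), while Kif13b overlapped. With 58 genes, these counts stand near the background shares.

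The directions were even, with 29 of the 58 genes lower and 29 higher in aged rats (50.548% of all genes were lower). The median log2 fold change, given throughout as aged minus adult, was -0.0047 against -0.0022 over all genes, with a range from -1.75 (Kif20a) to 0.74 (Kif4a). Among the 37 genes averaging at least 20 CPM, 14 were lower and 23 higher in aged rats, at a median log2 fold change of 0.0468. The share of all genes lower at that level was not counted. For the better measured genes the data also bounded a difference. Of the 37 genes averaging at least 20 CPM, 34 had a 95% interval lying wholly within 2-fold either way, and 26 within 1.5-fold. Of the 21 tested genes below 20 CPM, 9 had an interval within 2-fold.

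The counts did depend on single libraries. Leaving out adult rat 2 raised the genes at an unadjusted p under 0.05 from 2 to 5 and those without overlap to 15, and leaving out aged rat 3 raised them to 6 and 11. Without aged rat 2 the counts were 4 and 9. Without adult rat 1 they were 1 and 5, without aged rat 1 they were 1 and 4, and without adult rat 3 they were 3 and 5. With 2 rats on a side more genes are free of overlap by construction. Shares over all genes were not counted for these fits, so these counts have no background beside them and are not read as a result about the motors. In none of these fits was a motor gene called.

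**Figure D2:**
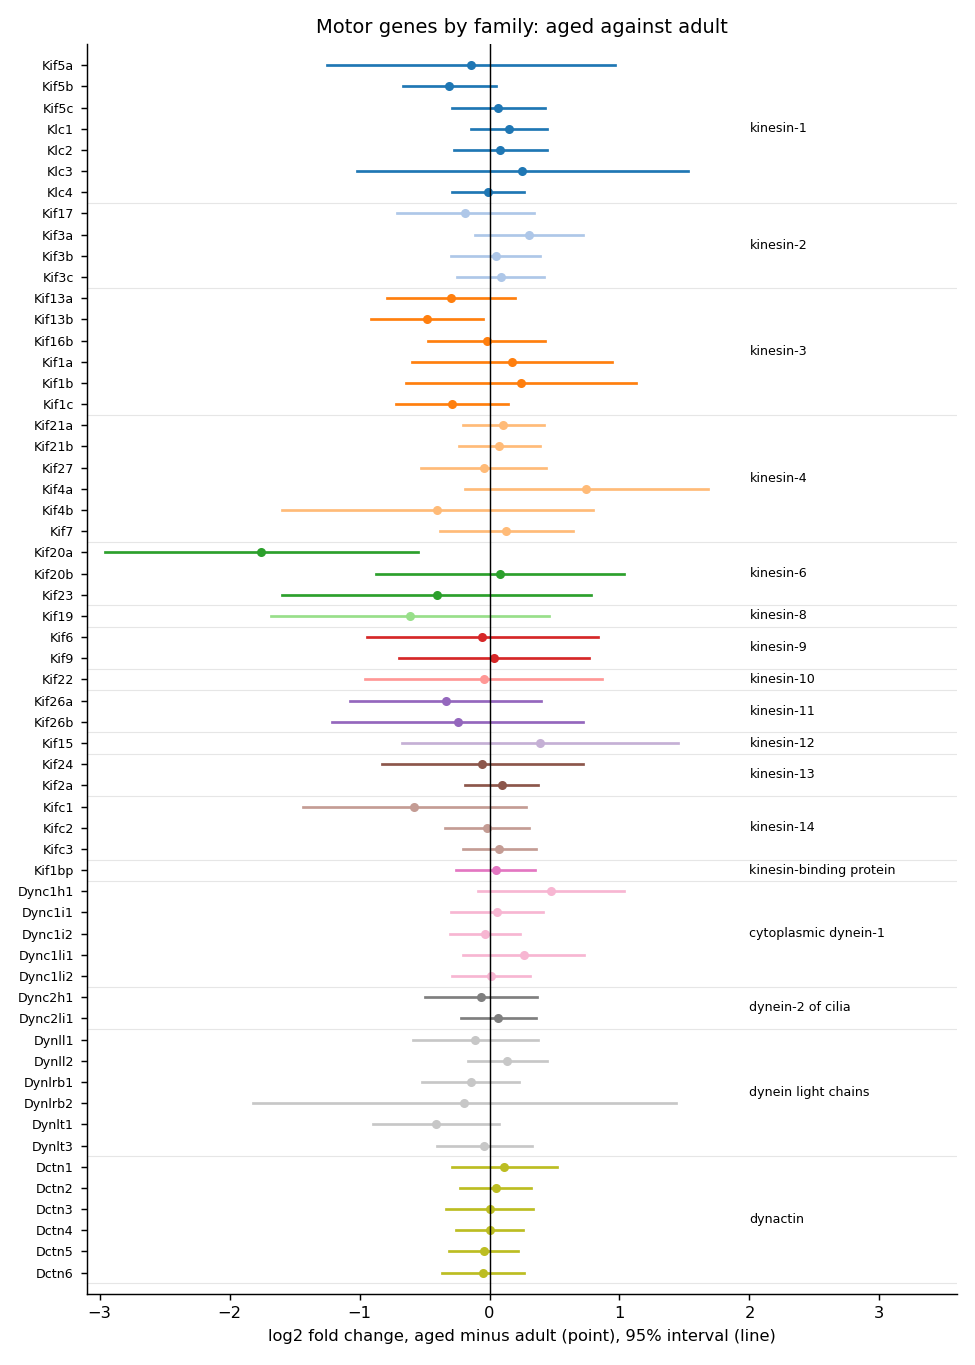
Fitted log2 fold change, aged minus adult, of each tested gene (point) with its 95% interval (line), coloured and grouped by family. All intervals but those of Kif20a and Kif13b cross 0, and the widest belong to Dynlrb2, Klc3 and Kif20a.

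Kinesin-1 pairs a dimer of Kif5 heavy chains with light chains that bind cargo, and moves mitochondria and vesicles into axons. Of its 7 genes, 3 were lower and 4 higher in aged rats, at a median of 0.0685 on the log2 scale and none at an unadjusted p under 0.05. Kif5a, the neuronal heavy chain mutated in a hereditary spastic paraplegia, stood at 147, 558 and 165 CPM in adult rats 1 to 3 and at 328, 204 and 256 CPM in aged rats 1 to 3. Adult rat 2 thus had the highest value and the other 2 adult rats the lowest, a 3.80-fold range with the aged rats in between. Means were 289.8 ± 232.3 CPM in adults and 262.5 ± 61.9 CPM in the aged (SD, n = 3). The log2 fold change was -0.14 (SE 0.48, 95% interval -1.25 to 0.97, edgeR unadjusted p = 0.7751, adjusted p = 1.0), and without adult rat 2 it was 0.75 (edgeR unadjusted p = 0.009071, adjusted p = 0.923). Over all alternatives the adjusted p of Kif5a lay at or above 0.923.

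Kif5c, the other neuron-enriched heavy chain, varied less, with 547, 745 and 556 CPM in the adults against 679, 654 and 604 CPM in the aged rats. Adult rat 2 was again the highest, and the log2 fold change was 0.07 (SE 0.15, edgeR adjusted p = 1.0). The ubiquitous heavy chain Kif5b, which glia also express, had 209, 183 and 156 CPM in the adults against 150.0, 127 and 166 CPM in the aged rats. Its values overlapped through adult rat 3 and aged rat 3, and its log2 fold change of -0.31 had a 95% interval from -0.66 to 0.05 (edgeR unadjusted p = 0.07991, adjusted p = 1.0), the smallest p in kinesin-1. As a share of the summed FPKM of the 3 heavy chains, Kif5a made up 27.021% to 53.723%, Kif5c 35.962% to 54.054% and Kif5b 10.315% to 22.585% of a library, and Kif5a was the largest share in adult rat 2 alone.

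The light chain Klc1 was steady, at 889, 932 and 878 CPM in the adults against 1026, 1078 and 888 CPM in the aged rats, with means of 899.6 ± 28.3 and 997.6 ± 97.9 CPM (SD, n = 3). Its lowest aged value lay within the adult range, and the log2 fold change was 0.15 (95% interval -0.14 to 0.44, edgeR adjusted p = 1.0). Klc2, the next light chain, had 290.5, 343 and 343 CPM in the adults against 412, 302 and 321 CPM in the aged rats, which overlapped. Klc1 supplied 67.972% to 74.255% of light chain FPKM in every library, Klc2 21.91% to 28.818%, and Klc3 at most 0.179%.

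**Figure D3:**
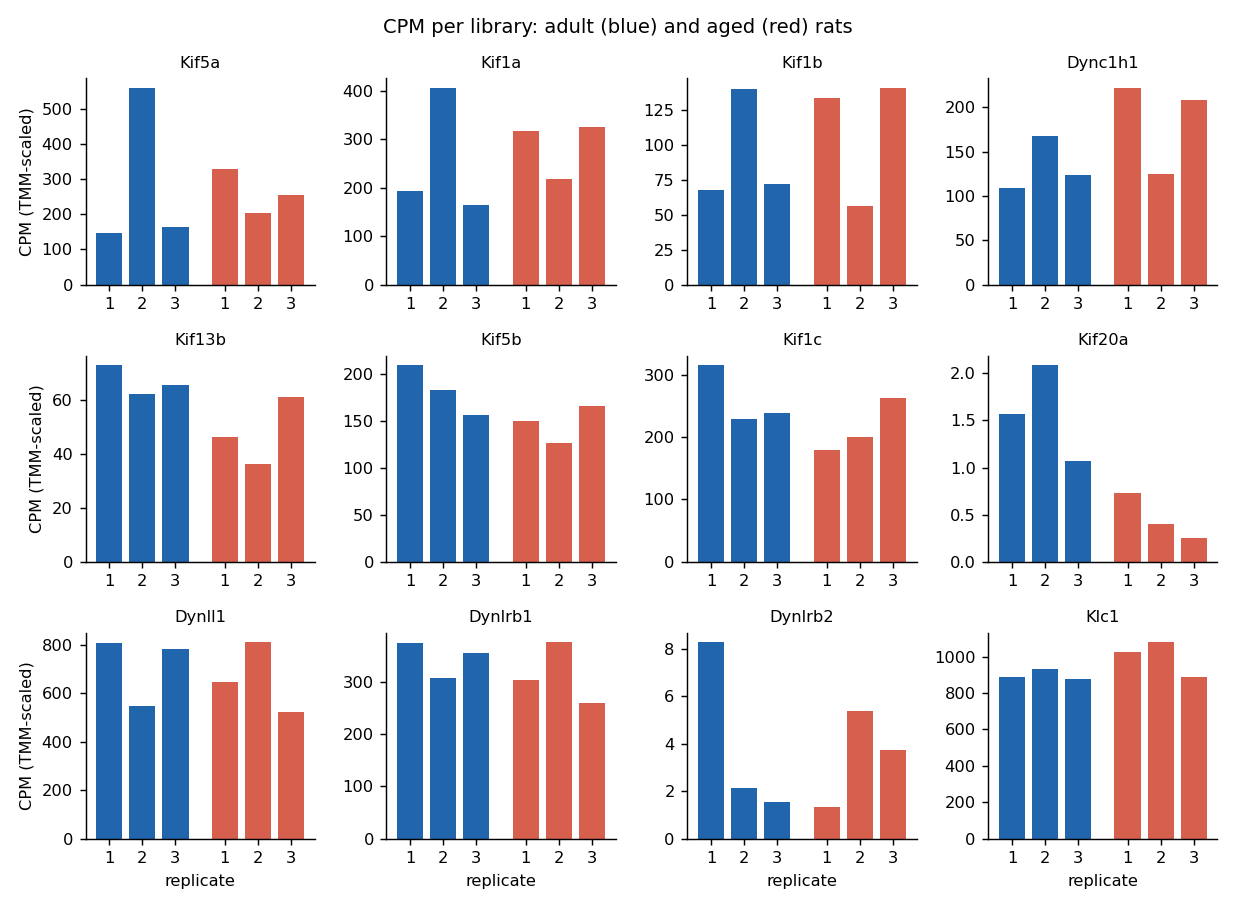
CPM per library for 12 motor genes, adult rats in blue and aged rats in red, each panel starting at 0. Kif5a and Kif1a peak in adult rat 2, Kif13b (by a narrow margin) and Kif20a have every aged bar below every adult bar, and Dynll1 and Dynlrb1 are high where Kif1b and Dync1h1 are low.

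Kinesin-2 motors drive transport into cilia and carry vesicles in dendrites and axons. Of the 4 genes, 1 was lower and 3 were higher in aged rats, and none had an unadjusted p under 0.05. Kif3a, the motor subunit shared by the kinesin-2 heterotrimers, had 98.0, 125 and 110.4 CPM in the adults against 166, 106 and 140.1 CPM in the aged rats. Aged rat 2 lay inside the adult range, and the log2 fold change of 0.30 had a 95% interval from -0.11 to 0.72 (edgeR unadjusted p = 0.1273, adjusted p = 1.0). Kif3c, a partner of Kif3a enriched in neurons and the highest of the family per length at 37.22 FPKM, had 108, 145 and 117 CPM in the adults against 141, 117 and 135 CPM in the aged rats, within the adult range. Kif17, the homodimeric motor known for moving NMDA receptor subunits in dendrites, had 18.8, 20.2 and 23.4 CPM in the adults against 15.0, 14.9 and 24.8 CPM in the aged rats. Here aged rat 3 was above all adult rats and the other 2 aged rats below them.

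Kinesin-3 motors are long-range carriers of dense-core and synaptic vesicle precursors. Of 8 genes, 6 were tested, 4 lower and 2 higher in aged rats, with a median log2 fold change of -0.1547. Kif13b, which binds the scaffold protein Dlg1, had 72.9, 62.4 and 65.5 CPM in the adults against 46.4, 36.4 and 61.1 CPM in the aged rats. In CPM all aged values lay below all adult values, aged rat 3 closely so, whereas in FPKM aged rat 3 at 6.05 lay above adult rat 2 at 5.9985. Means were 66.92 ± 5.38 and 47.97 ± 12.5 CPM (SD, n = 3). The log2 fold change was -0.48 (SE 0.19, 95% interval -0.91 to -0.05, edgeR unadjusted p = 0.03333, adjusted p = 1.0). With each rat left out, the unadjusted p lay between 0.00344 (without aged rat 3) and 0.1027 (without aged rat 2) in edgeR, and the adjusted p lay at or above 0.923 under every alternative.

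Kif1c, a widely expressed vesicle motor, had 316, 230.2 and 238 CPM in the adults against 179.7, 200.01 and 263 CPM in the aged rats. Its groups overlapped through aged rat 3, and the log2 fold change was -0.29 (95% interval -0.72 to 0.14, edgeR unadjusted p = 0.1637, adjusted p = 1.0). Kif13b, Kif5b and Kif1c shared an order of libraries in part: adult rat 1 was the highest in all 3, and aged rat 3 was the highest aged rat. The summed oligodendrocyte markers, with 8 of 8 lower in aged rats and none at 0, had the same highest library in each age, 17510 CPM in adult rat 1 and 9152 CPM in aged rat 3. Other motors also had adult rat 1 and aged rat 3 as the highest of their ages, among them Kif13a, Dync1i2, Dync2li1, Kif6 and Kif9. The share of all genes with this order was not counted. The part of oligodendrocytes in the values of Kif13b, Kif5b and Kif1c was not tested.

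**Figure D4:**
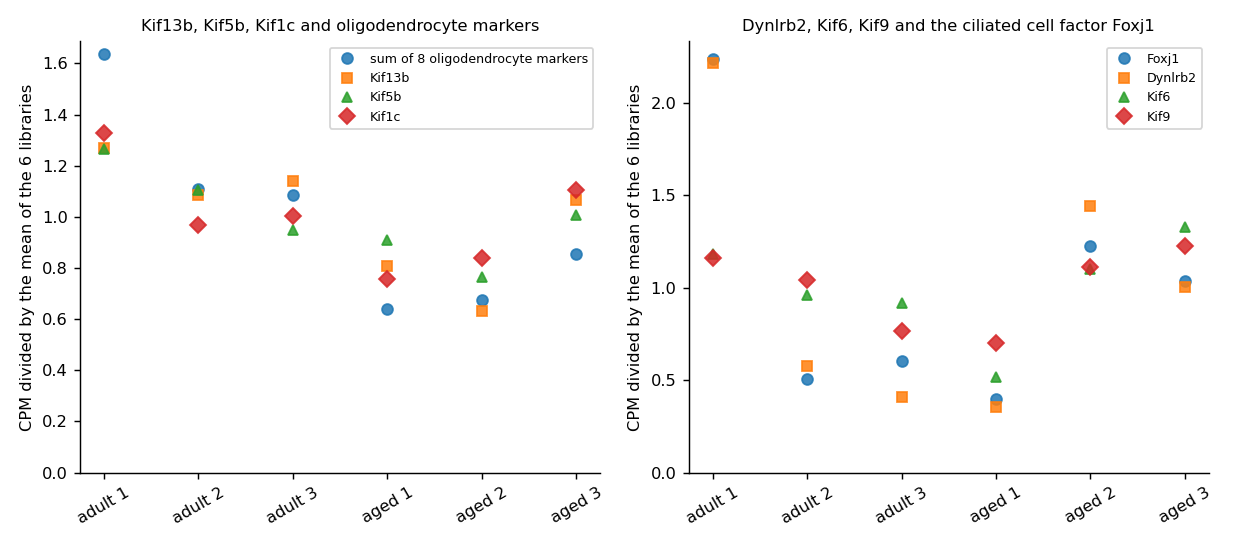
CPM of each gene or marker sum in each library, divided by its mean over the 6 libraries. On the left Kif13b, Kif5b and Kif1c are highest in adult rat 1 and, among aged rats, in aged rat 3, as is the oligodendrocyte sum, and on the right Dynlrb2 and Foxj1 are both highest in adult rat 1 and lowest in aged rat 1.

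The neuronal vesicle motors Kif1a and Kif1b ranged widely within each age. Kif1a had 193, 406 and 165 CPM in the adults against 317, 217 and 326 CPM in the aged rats, so that adult rat 2 was the highest and adult rats 1 and 3 the lowest. Its log2 fold change was 0.17 (SE 0.33, 95% interval -0.60 to 0.94, edgeR adjusted p = 1.0). Kif1b, which carries mitochondria and synaptic vesicle precursors in its different isoforms, had 67.9, 140.2 and 72.1 CPM in the adults against 134, 56.4 and 141 CPM in the aged rats. Adult rat 2 and aged rats 1 and 3 lay near each other and the remaining 3 libraries were much lower, for a log2 fold change of 0.24 (SE 0.39, edgeR adjusted p = 1.0).

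Kinesin-4 holds both transport motors and regulators of microtubule growth, and 2 of its 6 genes were lower and 4 higher in aged rats, none at an unadjusted p under 0.05. Kif21a, mutated in an inherited fibrosis of the eye muscles, had 149, 172 and 151 CPM in the adults against 182, 144 and 181 CPM in the aged rats. Kif21b, a neuronal relative, had 115, 136 and 105 CPM in the adults against 119.9, 118 and 139 CPM in the aged rats. Both overlapped between the ages. Kif2a of kinesin-13, which takes microtubules apart and prunes axon branches, had 78.6, 91.8 and 89.5 CPM in the adults against 102, 84.1 and 91.4 CPM in the aged rats. Kifc2 of kinesin-14 had 401, 453 and 437 CPM in the adults against 358, 464 and 451 CPM in the aged rats, and the kinesin-binding protein gene Kif1bp, which encodes no motor, had 221, 208 and 252 CPM in the adults against 255, 209 and 239.8 CPM in the aged rats. The ranges of these 3 genes also overlapped. Kif26a, a kinesin without ATPase activity, had 14.7, 13.8 and 6.66 CPM in the adults against 7.65, 11.4 and 8.76 CPM in the aged rats, all of the latter inside the adult range.

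Cytoplasmic dynein-1 is built from 2 heavy chains with intermediate, light intermediate and light chains. Of the 5 heavy, intermediate and light intermediate chain genes, 1 was lower and 4 were higher in aged rats, at a median of 0.0558 on the log2 scale and none at an unadjusted p under 0.05. Dync1h1, the heavy chain that holds the motor, had 109, 167 and 124 CPM in the adults against 222, 125 and 209 CPM in the aged rats. Aged rats 1 and 3 lay above every adult rat and aged rat 2 within their range, with means of 133.5 ± 30.2 and 185.0 ± 52.7 CPM (SD, n = 3). The log2 fold change was 0.47 (SE 0.24, 95% interval -0.09 to 1.03, edgeR unadjusted p = 0.08844, adjusted p = 1.0). Without aged rat 2 it was 0.70 (edgeR unadjusted p = 0.007944, adjusted p = 0.9661) and without aged rat 1 it was 0.34, and over all alternatives the adjusted p lay at or above 0.923.

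The other chains overlapped between the ages. Dync1i1, the intermediate chain enriched in neurons, had 168, 183 and 202 CPM in the adults against 231, 165 and 179 CPM in the aged rats, and the ubiquitous Dync1i2 had 192, 162 and 182 CPM in the adults against 169, 172 and 182 CPM in the aged rats. These chains link the motor to dynactin. The light intermediate chain Dync1li1, which binds adaptors, had 28.7, 39.2 and 29.4 CPM in the adults against 48.7, 30.8 and 37.0 CPM in the aged rats. Its relative Dync1li2 had 234, 232 and 197 CPM in the adults against 241, 199.9 and 227 CPM in the aged rats.

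Among the 6 genes of dynein light chains, 5 were lower and 1 was higher in aged rats, at a median of -0.1262 on the log2 scale and none at an unadjusted p under 0.05. Dynll1 had 806, 549 and 782 CPM in the adults against 648, 810.5 and 525 CPM in the aged rats, with means of 712.4 ± 142.0 and 661.0 ± 143.3 CPM (SD, n = 3). Adult rats 1 and 3 and aged rat 2 were high, and the log2 fold change was -0.11 (95% interval -0.59 to 0.37, edgeR adjusted p = 1.0). The order of libraries was the reverse of that seen for Kif1b, whose 3 lowest libraries were these. Dynlrb1 followed the same order in part, with 374, 308 and 355 CPM in the adults against 304, 375 and 259.9 CPM in the aged rats.

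Dynll2 did not share it, with 749, 711 and 747 CPM in the adults against 886, 842 and 699 CPM in the aged rats and a log2 fold change of 0.14 (95% interval -0.17 to 0.44, edgeR adjusted p = 1.0). Dynlt1, a Tctex-type light chain, had 18.4, 14.9 and 16.9 CPM in the adults against 9.65, 15.7 and 12.4 CPM in the aged rats. Only aged rat 2 reached the adult range, and the log2 fold change of -0.41 had a 95% interval from -0.90 to 0.07 (edgeR unadjusted p = 0.08589, adjusted p = 1.0). Without aged rat 2 its unadjusted p was 0.02633 (adjusted p = 0.9661 in edgeR), and without aged rat 1 the log2 fold change was -0.24.

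Dynactin, the cofactor that lets dynein run over long distances, had small fold changes between the ages. Of the 6 Dctn genes, 2 were lower and 4 higher in aged rats, with fold changes between -0.0513 and 0.1146 on the log2 scale and a smallest unadjusted p of 0.533 in edgeR. Dctn1, the p150Glued subunit that binds microtubules and is mutated in Perry syndrome, had 402, 588 and 492 CPM in the adults against 604, 456 and 545 CPM in the aged rats. Its log2 fold change was 0.11 (95% interval -0.29 to 0.52, edgeR adjusted p = 1.0). The gene spanned 1.503-fold over the 6 libraries, the widest range of the 6 Dctn genes. Dctn2, the dynamitin subunit of the shoulder, had 235, 254 and 268 CPM in the adults against 272, 270.2 and 240.4 CPM in the aged rats, a 1.154-fold range over all 6 libraries. Dctn3 to Dctn6 spanned between 1.148-fold and 1.320-fold.

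The genes of motile cilia were low and overlapped between the ages. Dynlrb2, the roadblock gene expressed in ciliated cells, had 8.26, 2.15 and 1.53 CPM in the adults against 1.33, 5.38 and 3.76 CPM in the aged rats, a 6.208-fold range with the extremes in adult rat 1 and aged rat 1. Foxj1, the transcription factor that defines cells with motile cilia, was likewise highest in adult rat 1 at 18.4 CPM and lowest in aged rat 1 at 3.26 CPM, with 4.17 and 4.93 CPM in adult rats 2 and 3 and 10.0 and 8.51 CPM in aged rats 2 and 3. The 11 markers of ependyma and motile cilia, none of them at 0 throughout and 7 of them lower in aged rats, summed to between 82.62 and 205.4 CPM in adults and between 98.31 and 195.4 CPM in aged rats. Dnah9 was the largest part of this sum in every library, at 96.4, 56.4 and 92.5 CPM in adult rats 1 to 3 and 76.9, 65.6 and 143 CPM in aged rats 1 to 3. Every other marker of that list was highest in adult rat 1. The part of ciliated cells, or of the choroid plexus transcripts of adult rat 1, in the level of Dynlrb2 was not tested.

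Kif6 and Kif9, kinesin-9 motors of motile cilia, had the lowest value in aged rat 1 as well. Kif6 had 3.96, 3.22 and 3.07 CPM in the adults against 1.73, 3.70 and 4.44 CPM in the aged rats, and Kif9 had 4.85, 4.36 and 3.20 CPM in the adults against 2.93, 4.66 and 5.13 CPM in the aged rats. Kif19 of kinesin-8, which limits the length of motile cilia, repeated this with 3.41, 5.25 and 5.86 CPM in the adults against 1.26, 4.498 and 3.76 CPM in the aged rats. Dync2li1, the light intermediate chain of the dynein-2 that returns cargo inside cilia of all kinds, was even, at 28.7, 25.1 and 27.3 CPM in the adults against 28.2, 27.9 and 29.0 CPM in the aged rats. In each of these 4 genes the ranges overlapped. A lowest value in aged rat 1 was not particular to genes of cilia, as Kif1c, Kifc2, Kif22, Kif23 and Dynlt1 also had it.

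The 12 mitotic kinesins were the least abundant set, and only 8 passed the filter, of which 5 were lower and 3 higher in aged rats. Kif20a, which works in the midzone of the dividing cell during cytokinesis, had 1.57, 2.09 and 1.07 CPM in the adults against 0.732, 0.402 and 0.250 CPM in the aged rats, from 23, 33 and 16 counts and 11, 5 and 4 counts. Every aged value lay below every adult value, with means of 1.574 ± 0.510 and 0.461 ± 0.246 CPM (SD, n = 3). The log2 fold change was -1.75 (SE 0.52, 95% interval -2.96 to -0.55, edgeR unadjusted p = 0.009797, adjusted p = 1.0), and it lay between -2.25 and -1.45 when each rat was left out. Over all alternatives its adjusted p lay at or above 0.923. In GRCr8 the gene overlaps Cdc23, and the strand setting of the counting is not given in the sources used here, so reads of the 2 genes may not have been told apart.

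The other mitotic kinesins named here that passed the filter had groups that overlapped in CPM. Kif4a, a chromosome-bound kinesin-4 that also acts in neurons, had 0.956, 1.52 and 1.73 CPM in the adults against 3.19, 2.25 and 1.63 CPM in the aged rats, with a log2 fold change of 0.74 (95% interval -0.19 to 1.68, edgeR unadjusted p = 0.104, adjusted p = 1.0). Kif23, also of the midzone, had 1.43, 1.90 and 1.07 CPM in the adults against 0.466, 1.69 and 1.19 CPM in the aged rats, and Kifc1, a minus-end spindle motor, had 2.05, 1.64 and 2.33 CPM in the adults against 1.73, 0.964 and 1.31 CPM in the aged rats. Kif22, which pushes chromosome arms outward, had 1.64, 1.39 and 1.53 CPM in the adults against 0.932, 2.01 and 1.502 CPM in the aged rats. Kif15, a spindle kinesin, had 0.683, 2.09 and 1.73 CPM in the adults against 2.46, 1.69 and 1.75 CPM in the aged rats. In deposited FPKM the values of Kif4a did not overlap, at 0.211, 0.338 and 0.372 in the adults against 0.691, 0.495 and 0.3727 in the aged rats. These came from 14, 24 and 26 counts in the adults and 48, 28 and 26 counts in the aged rats. Adult rat 3 and aged rat 3 had the same count, so their FPKM differed only through library totals of 15427497 and 15400405.

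Of the genes left out by the filter, Kif18b, a kinesin-8 that shortens microtubules at mitosis, had 8, 13 and 5 counts in adult and 0, 2 and 0 counts in aged rats. Fitted without a filter it had an unadjusted p of 0.01144 and an adjusted p of 0.9998 in edgeR. Kif28p had 0 counts in every adult rat and at most 4 counts in an aged rat (edgeR without a filter, unadjusted p = 0.0466, adjusted p = 0.9998). Kif14 and Kif2c also had separate groups in CPM, both lower in aged rats, with at most 4 and 8 counts in a library, and Kif14 overlapped in FPKM. The shares of all genes without overlap given above cover tested genes only, so for genes with so few counts no background share is at hand. The remaining untested genes, Kif12, Kif18a and Kif2b, reached at most 5, 11 and 0 counts.

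Among the 6 markers of dividing cells, Mki67, Top2a and Cdk1 were also lower in every aged rat than in any adult rat. Their aged values were low, between 0.063 and 0.799 CPM. Of all tested genes, 4.43% were lower in aged rats without overlap in CPM. Mki67 had 1.09, 3.10 and 0.933 CPM in the adults against 0.799, 0.402 and 0.188 CPM in the aged rats, and Cdk1 had 0.888, 1.01 and 0.80 CPM in the adults against 0.399, 0.241 and 0.188 CPM in the aged rats. Aurkb, Birc5 and Ccnb1 overlapped. Aurkb had 9.97, 2.72 and 3.40 CPM in the adults against 2.33, 10.4 and 10.9 CPM in the aged rats. Birc5 had 2.19, 2.34 and 3.00 CPM in the adults against 2.20, 2.73 and 2.32 CPM in the aged rats. Ccnb1 had 2.39, 2.59 and 1.80 CPM in the adults against 2.40, 1.61 and 1.94 CPM in the aged rats. The mean was lower in aged rats for 5 of the 6, and the sum of all 6 overlapped, at 10.8 to 18.03 CPM in adult and 8.453 to 16.15 CPM in aged rats. None of the 6 was at 0 in all libraries. The part of dividing cells in the level of Kif20a was not tested.

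The balance between related subunits was compared in 13 pairs by exact two-sided permutation tests of the log2 ratio over the 6 libraries, in which the smallest p that 3 rats against 3 allow is 0.1. The smallest exact permutation p was 0.2 (adjusted over the 13 pairs, 0.65), reached by Kif5c against Kif5b, Kif3a against Kif3b, Dynll1 against Dynll2 and Dynlt1 against Dynlt3. In FPKM, Kif5c exceeded Kif5b by 2.231-fold, 3.486-fold and 3.035-fold in adult and by 3.872-fold, 4.414-fold and 3.107-fold in aged rats, which overlapped. Kif3a exceeded Kif3b by 1.767-fold to 2.611-fold. The ratio of Dynll1 to Dynll2 lay between 2.703 and 3.984, and that of Dynlt1 to Dynlt3 between 0.066 and 0.131. The least steady ratios were Dynlrb1 to Dynlrb2, from 36.692 to 187.786, and Kif5a to Kif5b, from 1.196 to 5.208, and the steadiest were Kif21a to Kif21b, from 1.772 to 2.196, and Kif3c to Kif3b, from 2.857 to 3.95.

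The opposite order of Dynll1 and Kif1b lay along gene length, as implied by the deposited counts and FPKM. The 58 genes were divided at the limits that split all tested genes into 5 length classes of like size. In the shortest class, up to 1640 bases, the 7 motor genes, all of them dynein light chains or dynactin subunits, had median log2 deviations from the gene's own mean of 0.1967, -0.1717 and 0.1633 in adult rats 1 to 3 and -0.0616, 0.1994 and -0.1752 in aged rats 1 to 3. In the longest class, from 5614 bases, the 18 motor genes had -0.0324, 0.1629 and -0.1215 in adult and 0.0224, -0.2332 and 0.1909 in aged rats. Adult rat 2 and aged rat 3 were thus low for short and high for long motor genes, and adult rat 3 and aged rat 2 the reverse. Adult rat 1 was also high for short and slightly low for long motor genes. Aged rat 1 was slightly low for short and slightly high for long ones.

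The same held over all genes, with values smaller in size in both classes, except that of adult rat 1 in the longest class. The 2916 shortest genes had medians of 0.1143, -0.0965 and 0.0848 in adult and -0.0565, 0.1341 and -0.1612 in aged rats, and the 2919 longest had -0.0428, 0.046 and -0.019 in adult and 0.0182, -0.1113 and 0.114 in aged rats. Adult rats 1 and 3 and aged rat 2 were thus high for short genes, and adult rat 2 and aged rats 1 and 3 low. Each age held both kinds, but in unequal number, so the length pattern was partly aligned with age. With the trend on gene length taken out of each library, an alternative added after the data had been seen, 0 motor genes were called and 3 had an unadjusted p under 0.05 in edgeR. The 3 were Kif13b (edgeR unadjusted p = 0.008372), Kif20a (0.00981) and Kif5b (0.04159), each with an adjusted p of 0.9992. Outside these 3, the log2 fold change of Dynll1 then stood at 0.02, that of Dync1h1 at 0.45 and that of Kif5a at -0.14. The cause of the length pattern was not tested.

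**Figure D5:**
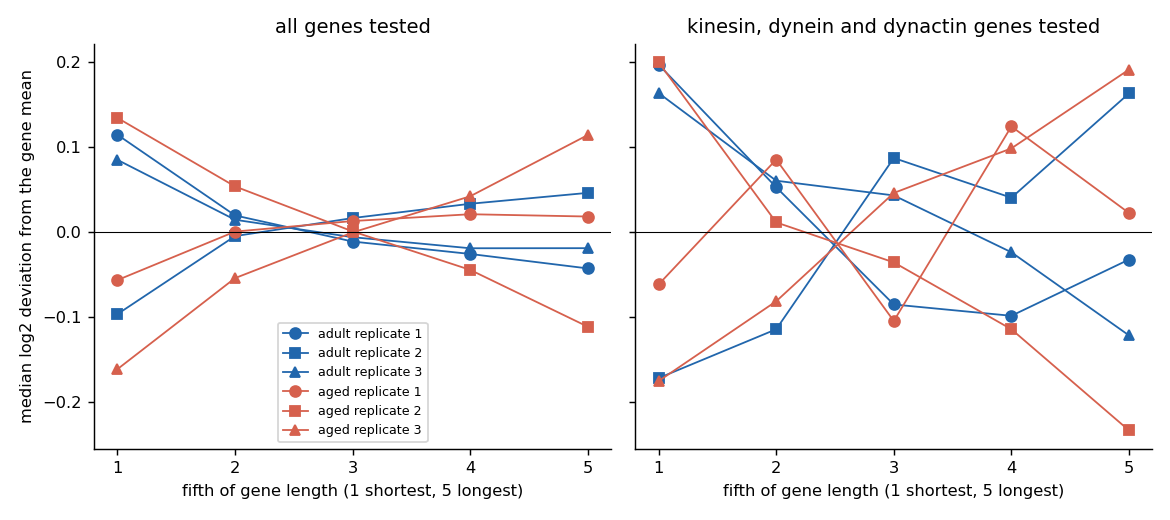
Median log2 deviation of each library from the gene's mean, in 5 classes of gene length from shortest (1) to longest (5), for all genes tested (left) and for the motor genes (right), with adult rats in blue and aged rats in red. Adult rat 2 and aged rat 3 run upward and adult rat 3 and aged rat 2 downward in both panels, and the slopes are steeper for the motor genes. From class 1 to class 5, adult rat 1 also ends lower and aged rat 1 higher.

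Motors reach their cargo through adaptors, and 44 genes of adaptors and regulators outside the symbol rule were looked up, of which 43 were tested. Of these, 17 were lower and 26 higher in aged rats, with a median log2 fold change of 0.0298 against -0.0022 over all genes, and 0 were called by edgeR. At an unadjusted p under 0.05 there were 2 lower, Fez2 and Trak2, and 1 higher, Hap1, where 2.27% and 1.18% of all genes were. Fez2, a kinesin-1 adaptor, had 32.2, 40.3 and 43.3 CPM in the adults against 27.6, 29.9 and 28.2 CPM in the aged rats, without overlap (edgeR unadjusted p = 0.01662, adjusted p = 1.0). Trak2, which links kinesin-1 and dynein to mitochondria, had 393, 314 and 305 CPM in the adults against 243, 254 and 297 CPM in the aged rats, without overlap in CPM but not in FPKM (edgeR unadjusted p = 0.04418, adjusted p = 1.0).

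In Trak2, too, adult rat 1 and aged rat 3 were the highest of their ages, as in the oligodendrocyte sum and also as in Dync1i2, Kif6 and Kif9. Hap1, the huntingtin-associated protein that ties cargo to dynactin and kinesin-1, had 160.0, 130.1 and 72.5 CPM in the adults against 154, 229.6 and 185 CPM in the aged rats, which overlapped through aged rat 1 (edgeR unadjusted p = 0.04883, adjusted p = 1.0). Nde1, a dynein regulator, had 8.13, 6.005 and 5.398 CPM in the adults against 4.86, 3.62 and 5.19 CPM in the aged rats, separate groups without an unadjusted p under 0.05. In CPM, 3 of the 43 had separate groups, lower in aged rats (4.43% of all genes), and 0 had them higher (3.13%), and in FPKM Fez2 alone of the 43 did. The count of adaptors at an unadjusted p under 0.05 was 1 without adult rat 3 or without aged rat 1, and 2 or 3 without any other rat.

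The tested genes outside the symbol rule whose log2 CPM ran most like that of Kif5a over the 6 libraries were Pcdhgc3 (Pearson r = 0.996), Fut9 (0.996), Fbxw8 (0.991), Atic (0.991) and Zfp365 (0.989). For Dync1h1 they were Znf408 (0.998), Ehbp1 (0.998), RGD1562310 (0.995), LOC501266 (0.992) and Pcnx4 (0.992). Within the motors, Kif3c (0.928), Kifc3 (0.927), Kif1a (0.924) and Kif5c (0.922) were closest to Kif5a, and Kif3a (0.971) and Kif21a (0.961) to Dync1h1. These values describe 6 libraries that share depth and length differences between genes, and were picked as the highest of 14588.

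Counting may also have mixed genes. By GRCr8 annotation, 31 of the 65 motor genes overlap another gene, many of them uncharacterised loci, and since strand use is not stated, reads of such neighbours may not have been told apart. Kif4a and Kif4b are close relatives and may have shared reads, which was not tested. Kif4b had 29, 16 and 20 counts in adult rats 1 to 3 and 8, 12 and 28 counts in aged rats 1 to 3. It was lowest in aged rat 1, where Kif4a was highest at 48 counts.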

How the data were processed

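The authors deposited raw counts per gene symbol and FPKM for 6 libraries, 3 of each age. The submitters' processing notes name the genome build Rnor_6.0. The aligner, counting program, annotation and strand setting were not given in the sources used here. Deposited FPKM equalled the count over a fixed gene length and the library total, so both hold 1 measurement.

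Counts were filtered with edgeR's filterByExpr, scaled by TMM and tested on the whole table, with age as the sole term (edgeR 4.0.16, R 4.3.3, quasi-likelihood F test, two-sided, Benjamini-Hochberg adjustment, called under 0.05). Intervals cover 95%. Alternatives were DESeq2 1.42.0, limma 3.58.1 (voom, and log2 FPKM with a pseudocount of 1 or 0.1), other scalings and filters, the replicate number as a block and leaving out each rat. A fold change on the log2(FPKM + pseudocount) scale understates low genes. Ratios of subunits used exact permutation tests, counted over every split of the 6 libraries (Python 3.11.15). The code was tested on simulated counts. Promoters came from RefSeq. No column of another sample was present.

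The set of genes was proposed, and the role groups, adaptor and marker lists were written, with earlier results of these data known, although the rule for the genes itself uses symbols only. Values in every rat are given for a fixed set of 24 subunits of axonal transport, for every gene at an unadjusted p under 0.05, and for the highest mean FPKM and smallest p of each role group. Genes among the 5 largest or smallest fold changes above 1 CPM could also be named. Untested genes with separate groups, Kif1c, Kif4b, Kif13a, Klc3 and Dctn4, and the marker genes given singly, were named after their values were seen. The 1 other gene with a matching symbol is not reported here.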

Additional observations from a re-analysis of the deposited data

How the results depend on the processing

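No motor gene was called under any alternative or with any rat left out, and adjusted p-values of the 16 genes given with a fold change stayed at or above 0.923. The motor genes at an unadjusted p under 0.05, 2 in the main analysis, numbered 1 with library size scaling and 1 on log2(FPKM + 1) or log2(FPKM + 0.1), 4 with no filter, and from 1 to 6 with each rat left out. Genes with separate groups, 2 in the main analysis, numbered 5 with no filter and from 4 to 15 with each rat left out. Smaller groups overlap less by construction, and no share over all genes was counted for these fits, at an unadjusted p or by overlap. In FPKM and with library size scaling there were also 2 genes with separate groups, but with Kif4a, higher in aged rats, in place of Kif13b. The number lower in aged rats stayed between 26 and 33, and the median log2 fold change between -0.0159 and 0.0363. Adaptors at an unadjusted p under 0.05 numbered from 1 to 3 with each rat left out.

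Of 272 fold changes run for the 16 genes, 12 changed sign, and the cause was not tested. Kif5a was 0.1148 with limma-voom, 0.1258 and 0.1302 on log2(FPKM + 1) and log2(FPKM + 0.1), 0.1463 with the replicate block, and between -0.4527 and 0.7534 with each rat left out. Dynll1 was 0.0168 with the length trend removed and between -0.274 and 0.0333 with each rat left out. The same ranges were -0.0001 to 0.2291 for Kif5c, -0.0041 to 0.2592 for Dctn1 and -0.0556 to 0.6802 for Kif1a. Kif20a kept its sign but stood at -0.4055 on log2(FPKM + 1), a scale that compresses low values. Of 104 differences in log2 ratio, 15 changed sign with a rat left out, with ranges of -0.0293 to 1.0317 for Kif5a against Kif5b, -0.0776 to 0.1823 for Klc1 against Klc2, -0.0634 to 0.1701 for Kif3c against Kif3b, -0.1846 to 0.1832 for Kif1a against Kif1b, -0.0684 to 0.0866 for Kif21a against Kif21b, -0.0851 to 0.1656 for Dync1i1 against Dync1i2 and -0.8194 to 0.3583 for Dynlrb1 against Dynlrb2.

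Same-numbered rats showed little shared deviation (correlations -0.015, -0.057 and 0.087), and adult rat 3 alone was closest to the aged rat of its own number. Values this few cannot exclude a pairing of small effect. With the replicate block, 0 motor genes were called, 2 had an unadjusted p under 0.05, 28 were lower and the median was 0.0054. Over all genes, DESeq2 called 31, limma on log2(FPKM + 1) 2, and edgeR 1 without each adult rat in turn and 0 without each aged rat. Depth limits the mitotic kinesins, all below 1 FPKM.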
